A study of Caenorhabditis elegans with 2 samples.

Results

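The Max network of the nematode Caenorhabditis elegans is described here through 6 named genes, mxl-1, mxl-2, mxl-3, mdl-1, mml-1 and hlh-30, of 19973 nuclear protein-coding genes. At each gene, every summit of MXL-1 ChIP-seq peaks was taken from 3000 bp upstream of any transcript start to 1000 bp past the gene end. A summit is the base of highest signal within a peak. The 6 windows held 1 summit of the thresholded peak list, 22 of the pooled list, and 29 in each of replicates 1 and 2.

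The animals were strain OP537, whole hermaphrodites at the young adult stage, 67 hours after release from synchronisation as starved L1 larvae. All carried the mutation unc-119(tm4063) on chromosome III and the transgene wgIs537, which expresses MXL-1 with a C-terminal GFP-FLAG tag, and the immunoprecipitation used an antibody to GFP. There was 1 group of 2 replicates, labelled as biological, with no other genotype or condition, so nothing below compares conditions. The labels do not give the promoter, extent or copy number of the transgene, and whole animals do not show which cells a peak comes from.

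Max network proteins are basic helix-loop-helix leucine zipper transcription factors that bind DNA as dimers, with the E-box CACGTG as their best known sequence. In the worm, MXL-1 pairs with the Mad-like repressor MDL-1, whereas MXL-2 pairs with the Myc- and Mondo-like activator MML-1. MXL-3 is a further Max-like protein, a repressor of lysosomal lipase genes in fed animals, and HLH-30 is the worm counterpart of mammalian TFEB, an activator of autophagy and lysosomal genes.

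The thresholded list (557 peaks) was exactly the strongest 557 peaks of the pooled list (14200 peaks), with signals from 67.7 upward and a median of 90.97, against a median of 31.7 in the pooled list. Pooled and replicate lists are labelled as peaks together with background, so their weaker entries need not be binding sites. Of the 22 pooled summits in the Max network windows, 3 (13.6%) had an authors' q value under 0.05, against 1032 of 14193 nuclear pooled summits (7.27%). Those 3 were 2 summits of mdl-1 and 1 of hlh-30. Signals are the authors' values on an unstated scale and come without read totals, so depth is unknown. They are ranked within a list, and where replicate signals are set side by side, it is not known that the lists share a scale.

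Sequence was read from the RefSeq WBcel235 assembly, which is the build ce11 of the peak lists, always on the plus strand and in lower case with CACGTG in capitals. The first set is shown because it holds the E-boxes nearest to pooled summits of mdl-1, the gene with most CACGTG sites among the 6. Each run is centred on a pooled summit and spans 201 bp.
mdl-1, 1263 bp upstream of the start, chrX:6740988-6741188: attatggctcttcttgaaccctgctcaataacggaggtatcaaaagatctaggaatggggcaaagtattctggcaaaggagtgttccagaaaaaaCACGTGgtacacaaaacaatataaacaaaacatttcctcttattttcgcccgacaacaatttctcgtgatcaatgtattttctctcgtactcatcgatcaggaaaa
mdl-1, 150 bp upstream, chrX:6742101-6742301: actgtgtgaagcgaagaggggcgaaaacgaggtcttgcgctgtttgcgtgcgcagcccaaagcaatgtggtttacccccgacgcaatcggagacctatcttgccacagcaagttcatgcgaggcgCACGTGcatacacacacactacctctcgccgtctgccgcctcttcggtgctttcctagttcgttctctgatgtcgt
mdl-1, 2769 bp upstream, chrX:6739482-6739682: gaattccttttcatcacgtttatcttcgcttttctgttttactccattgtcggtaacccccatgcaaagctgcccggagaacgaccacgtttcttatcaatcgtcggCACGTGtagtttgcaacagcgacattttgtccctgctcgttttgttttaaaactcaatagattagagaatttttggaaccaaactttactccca
The next run is the thresholded summit inside the mdl-1 gene, shown because it is the strongest peak of the 6 windows and holds no CACGTG.
mdl-1, 977 bp past the start, chrX:6743228-6743428: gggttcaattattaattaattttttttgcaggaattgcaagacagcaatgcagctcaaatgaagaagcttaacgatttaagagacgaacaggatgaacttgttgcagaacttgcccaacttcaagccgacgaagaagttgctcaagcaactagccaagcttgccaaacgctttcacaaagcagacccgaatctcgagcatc
The last run of this set lies upstream of the mdl-1 window and is shown because it is a stronger thresholded peak that does hold CACGTG.
upstream of mdl-1, 4574 bp from the start, chrX:6737677-6737877: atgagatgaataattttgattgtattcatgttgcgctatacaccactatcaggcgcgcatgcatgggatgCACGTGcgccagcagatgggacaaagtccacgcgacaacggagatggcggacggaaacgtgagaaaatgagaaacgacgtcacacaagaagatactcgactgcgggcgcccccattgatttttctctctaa

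mdl-1 (WBGene00003163, chromosome X, 6742351 to 6743899, plus strand), which encodes the dimer partner of MXL-1, was the member with most summits for its length. Its window of 5549 bp held the single thresholded summit of the 6 genes. Across all protein-coding genes, 4.32% had a thresholded summit in the window, so 1 of 6 is too few genes to set the network apart. The summit stood at 6743328 in a peak from 6743108 to 6743547, in coding sequence of the last exon. With a signal of 72.7 it ranked 470 of 557, near the lower end of the list, and 3.65% of genes had a pooled signal at least as high in their window.

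The replicates differed at this gene-body peak. In replicate 1 the matching summit lay 18 bp away, with a signal of 19.4 and rank 5581 of 20313. In replicate 2 it lay 20 bp away, with a signal of 41.7 and rank 398 of 21882. The peak thus stood among the strongest of replicate 2 and far down the list of replicate 1. The ratio of replicate 2 to replicate 1 signal was 2.14, against a median of 1.05 over the 514 nuclear thresholded summits matched in both replicates. A ratio as high was found at 14 of these 514 (2.72%), and a weaker replicate ranked as low at 7 (1.36%).

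A further strong summit followed just past the mdl-1 gene, and here the order of the replicates was the opposite. The pooled summit at 6744207, 308 bp past the gene end and within the noncoding RNA gene R03E9.10, had a signal of 64.3 and rank 642, just under the lowest thresholded signal of 67.7. Replicate 1 had its strongest summit of the mdl-1 window there, 90 bp away, with a signal of 38.7 and rank 445. Replicate 2 had a summit 1 bp away with a signal of 27.7 and rank 1575. The strongest summit of replicate 1 and that of replicate 2 were 769 bp apart, on either side of the gene end, and the 557 strongest peaks of each replicate held no other summit of the window. With 2 replicates, the spread of either peak cannot be tested. The authors' q values of the pooled list were 0.00773 inside the gene and 0.00857 past its end. The value 0.00773 was carried by all 557 thresholded peaks, so it is not particular to this one. In replicate 1 the q values were 0.544 inside the gene and 0.00769 past its end, and in replicate 2 they were 0.0108 and 0.127. Neither peak thus had a q under 0.05 in both replicates.

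The other 4 pooled summits of mdl-1 were upstream of the start, with signals of 28.4 at 2769 bp, 43.5 at 1263 bp, 45.5 at 373 bp and 39.6 at 150 bp. Their q values ran from 0.206 to 0.884. The summit at 150 bp was matched in both replicates within 100 bp, with 21.2 in replicate 1 and 20.9 in replicate 2. At 1263 bp replicate 1 matched within 4 bp with 23.5, and the nearest summit of replicate 2, with 30.99, missed the limit at 112 bp. At 373 bp replicate 2 matched within 4 bp with 30.8, and the nearest summit of replicate 1 lay 239 bp away. By the 100 bp limit, the summit at 150 bp was the only upstream one matched in both replicates. At 1263 bp the peaks of the replicates still overlapped, running from 6740870 to 6741313 in replicate 1 and from 6740761 to 6741190 in replicate 2.

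**Figure D1:**
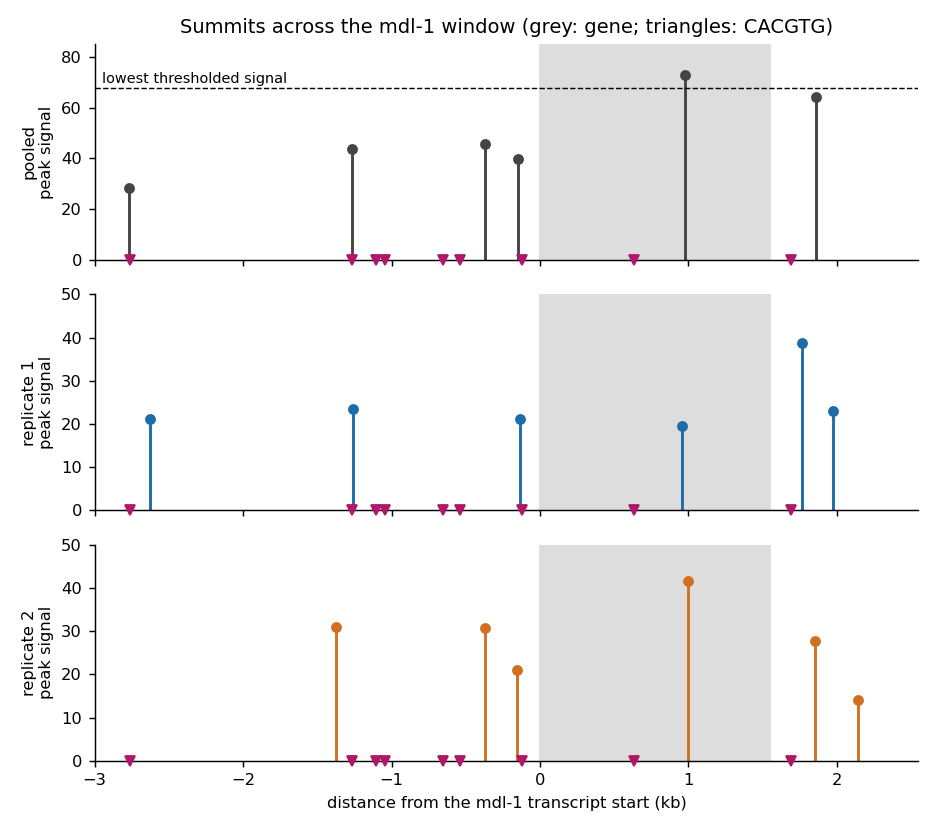
Signal of every summit in the mdl-1 window (vertical axis, the authors' peak signal, scale not stated) against distance from the transcript start in kb, for the pooled list and both replicates; the grey area is the gene, triangles are CACGTG sites and the dashed line is the lowest thresholded signal. The pooled peak of 72.7 inside the gene was strong in replicate 2 (41.7) and weak in replicate 1 (19.4), and the next peak, past the gene end, was the strongest of replicate 1 (38.7).

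In number of summits mdl-1 stood high among genes of its size. It had 6 pooled summits, and 1.25% of all protein-coding genes (250) had as many or more. Among the 7232 genes with a window no longer than that of mdl-1, 14 (0.194%) had as many. Each replicate list also held 6 summits in the window. As many or more were found at 2.89% of all protein-coding genes in replicate 1 and 3.4% in replicate 2. Of the 6 pooled summits, 3 were matched in both replicates, against 31.0% of all nuclear pooled summits.

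CACGTG was dense at mdl-1 as well. The window held 9 sites, of which 7 lay upstream between 122 and 2760 bp from the start, 1 in an intron and 1 past the gene end. As many sites were found in 0.551% of genes (110), and the median over all genes was 1. Among genes with windows no longer than that of mdl-1, 2 had as many sites, mdl-1 included, and mdl-1 was the 1 gene with both as many sites and as many pooled summits. This pairing was noticed after the values were seen and is a description.

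The 3 upstream runs printed above show how close summits came to these sites. The site at 6741083 was 3 bp from the pooled summit, 7 bp from a replicate 1 summit and 110 bp from one of replicate 2. The site at 6742226 was 28 bp from the pooled summit, 12 bp from replicate 1 and 33 bp from replicate 2, the shortest distances shared by both replicates. The site at 6739589 was 10 bp from the pooled summit, but 131 and 291 bp from the replicates. The other 6 sites were between 159 and 344 bp from a pooled summit. The thresholded summit in the coding exon had no CACGTG within 100 bp, in the pooled list or in either replicate. Most thresholded summits lacked it, since 34 of 550 nuclear ones (6.18%) had it. Past the gene end, the site at 6744037 was 78 bp from the strongest replicate 1 summit of the window, but 168 bp from the pooled summit and 167 bp from that of replicate 2.

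The bases beside CACGTG varied over the 9 sites of mdl-1. A T stood directly before it in 3, an A directly after it in 3, and 5 had at least 1 of these. Sites near and far from summits are shown with 10 bases on either side, the first pair within 30 bp of a pooled summit and the last pair beyond 150 bp.
mdl-1, chrX:6741073-6741098: ccagaaaaaaCACGTGgtacacaaaa
mdl-1, chrX:6742216-6742241: atgcgaggcgCACGTGcatacacaca
mdl-1, chrX:6741295-6741320: ttgccactttCACGTGaactattttt
mdl-1, chrX:6741799-6741824: tgaggaaattCACGTGggtattcccc

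The peak upstream of the mdl-1 window was the strongest within 5000 bp upstream of any of the 6 genes. It ran from 6737557 to 6737996 with its summit at 6737777, outside the 3000 bp limit, and was singled out after its values were seen. Its signal was 102.9, rank 206 of 557. Both replicates placed the summit at that same base, as at 3 of 550 nuclear thresholded summits, with 57.1 (rank 147) in replicate 1 and 46.1 (rank 313) in replicate 2. So this peak was among the 557 strongest of each replicate, unlike the peak inside mdl-1. The centre of its CACGTG was 28 bp from the summit, and it was 1 of 34 nuclear thresholded summits (6.18%) with that sequence within 100 bp and 1 of 16 (2.91%) that also ranked among the strongest in both replicates. The peak lay in the 9049 bp between mdl-1 and its neighbour R03E9.2, whose start was 4476 bp away on the other side, slightly nearer than that of mdl-1 at 4574 bp. Which of the genes, if either, the site acts on was not tested.

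mxl-1 itself (WBGene00003509, chromosome V, 11244839 to 11245926, plus strand), the gene of the tagged protein, had no summit in any of the 4 lists within its window of 5088 bp. An empty window was found at 12.2% of protein-coding genes, so empty windows are common. No CACGTG lay in the window either, whereas 64.4% of genes had at least 1.

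The empty stretch around mxl-1 was long, however. Flanking pooled summits were 84070 bp apart, and 5 of 14187 gaps between neighbouring pooled summits, this one included, were as long, with a median of 3874 bp. Replicate 1 had a gap of 66144 bp there (6 of 20301 as long) and replicate 2 a gap of 83572 bp (3 of 21868). From 11209665 to 11270855 no list had a summit. Within 50 kb of the gene the pooled list held 3.96 summits per 100 kb, against 13.5 over chromosome V. Replicate 1 held 6.92 against 19.6, and replicate 2 held 1.98 against 21.3. The same pooled gap held 23 protein-coding genes, and 153 (0.766%) lay in pooled gaps as long. The windows of the other 5 genes each held summits in the pooled list and in both replicates. The tagged copy of mxl-1 comes from a transgene whose extent the labels do not give, and its part in the gap was not tested.

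**Figure D2:**
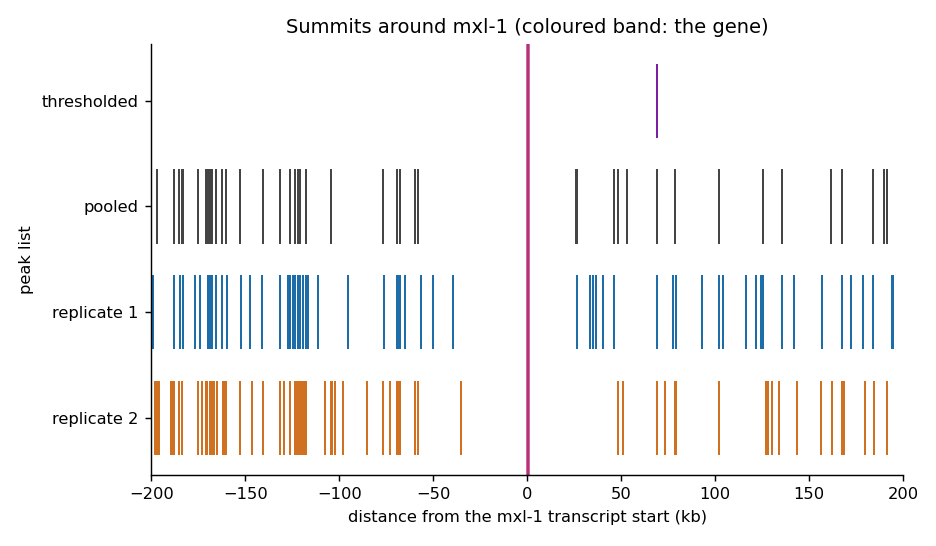
Position of each summit around mxl-1 (horizontal axis, kb from the transcript start) in the thresholded list, the pooled list and both replicates; each short line is a summit and the band at 0 is the gene. No list had a summit from 35174 bp before to 24929 bp past the gene, in a pooled gap of 84070 bp.

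mml-1 and mxl-2 encode the other dimer of the network, and neither had a thresholded summit, like 95.7% of genes. mml-1 (WBGene00003378, chromosome III, 7370130 to 7374731, minus strand) had 3 pooled summits in a window of 8602 bp, and replicates 1 and 2 had 4 and 6. As many summits or more were found at 14.2% of genes in the pooled list, 11.8% in replicate 1 and 3.4% in replicate 2. The pooled summit at 7377686, 2955 bp upstream of mml-1 but only 1359 bp from the start of T20B12.7, had a signal of 43.4, with 15.4 in replicate 1 and 27.7 in replicate 2. The summit at 7369854, 276 bp past the gene end, had 41.9, with 24.9 in replicate 1 and 18.2 in replicate 2. The replicate with the higher listed signal was not the same at these summits, and the lowest authors' q at mml-1 was 0.279. The remaining summit, at 7376472 and 1741 bp upstream, had a pooled signal of 27.6 and was matched in replicate 2 only (15.0). It was the only pooled summit outside mdl-1, among those of the 6 windows, with CACGTG within 100 bp, and its sequence is shown for that reason.
mml-1, chrIII:7376372-7376572: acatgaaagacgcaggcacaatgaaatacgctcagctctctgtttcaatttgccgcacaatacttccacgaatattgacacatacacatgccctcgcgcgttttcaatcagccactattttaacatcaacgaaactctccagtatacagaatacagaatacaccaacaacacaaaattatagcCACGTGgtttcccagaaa

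mxl-2 (WBGene00003510, chromosome III, 186949 to 188131, minus strand), the partner of mml-1, had 1 pooled summit, at 190371. At least 1 was found at 60.1% of genes. The mxl-2 summit had a signal of 46.7 and rank 1647, with 20.96 in replicate 1 at the same base and 21.2 in replicate 2 at 15 bp. The replicate summits lay close together with listed signals of like size, and the q of the pooled summit was 0.164. The summit lay 2240 bp upstream of mxl-2, inside an intron of ubc-20, a ubiquitin-conjugating enzyme gene, and 615 bp from the start of cox-17, a copper chaperone gene of cytochrome c oxidase assembly. The single CACGTG of the mxl-2 window was 528 bp away.

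mxl-3 and hlh-30 encode the factors tied to lysosomal and fasting genes, and again neither had a thresholded summit, like 95.7% of genes. mxl-3 (WBGene00003511, chromosome X, 13349639 to 13350804, minus strand) had 2 pooled summits within the gene, of 34.6 in an intron and 31.8 in a coding exon, and neither was matched in replicate 2. As many pooled summits or more were found at 31.1% of genes. Replicate 1 had 3 summits in the window (as many or more at 23.4% of genes), all in coding exons, the strongest with 33.4 (rank 700). Replicate 2 had 5 (as many or more at 6.64% of genes), the strongest with 24.6 (rank 2525) and 301 bp upstream. The replicates thus placed their strongest mxl-3 summits on different sides of the start. Of 3 CACGTG sites in the window, none was within 100 bp of a summit in any list. Most sites have none, and 4.34% of all nuclear sites had a pooled summit that near. Outside the window, 4147 bp upstream, a pooled summit of 44.2 (rank 1990) did hold CACGTG, with 13.7 in replicate 1 at 15 bp and 30.9 in replicate 2 at 55 bp.

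hlh-30 (WBGene00020930, chromosome IV, 4014793 to 4034951, minus strand) had the most summits and the longest gene of the 6, with 13 transcripts from 10 distinct starts. Its window of 24159 bp held 10 pooled summits, and 0.12% of genes had as many. Per 10 kb, however, 9.97% of genes were as dense, against 0.16% at mdl-1. Introns held 8 of the 10, the 3'UTR 1 and the upstream region 1. The strongest, in an intron at 4031379, had a signal of 56.1 and rank 934, with 23.97 in replicate 1 and 35.1 in replicate 2, and a q of 0.0295. Next came another intron summit at 4024244 with 52.96 (28.4 and 21.0 in the replicates) and the 3'UTR summit at 4015403 with 49.5 (27.7 and 24.6). These 3 were among the 4 summits of hlh-30 matched in both replicates, which put them in different orders of strength. In the pooled list the 3 summits within 500 bp upstream of a start had signals from 26.0 to 28.2, whereas the other 7 ran from 27.1 to 56.1. The replicates did not show this: such summits had 16.14 and 19.3 in replicate 1, above its median of 15.9 at hlh-30, and 19.2 and 19.5 in replicate 2, where the median was 19.5. None of the 5 CACGTG sites of hlh-30 was within 100 bp of a summit in any list. This is the common case, because few of the 17729 nuclear sites had such a summit. The shares were 4.34% in the pooled list, 5.71% in replicate 1 and 5.82% in replicate 2.

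**Figure D3:**
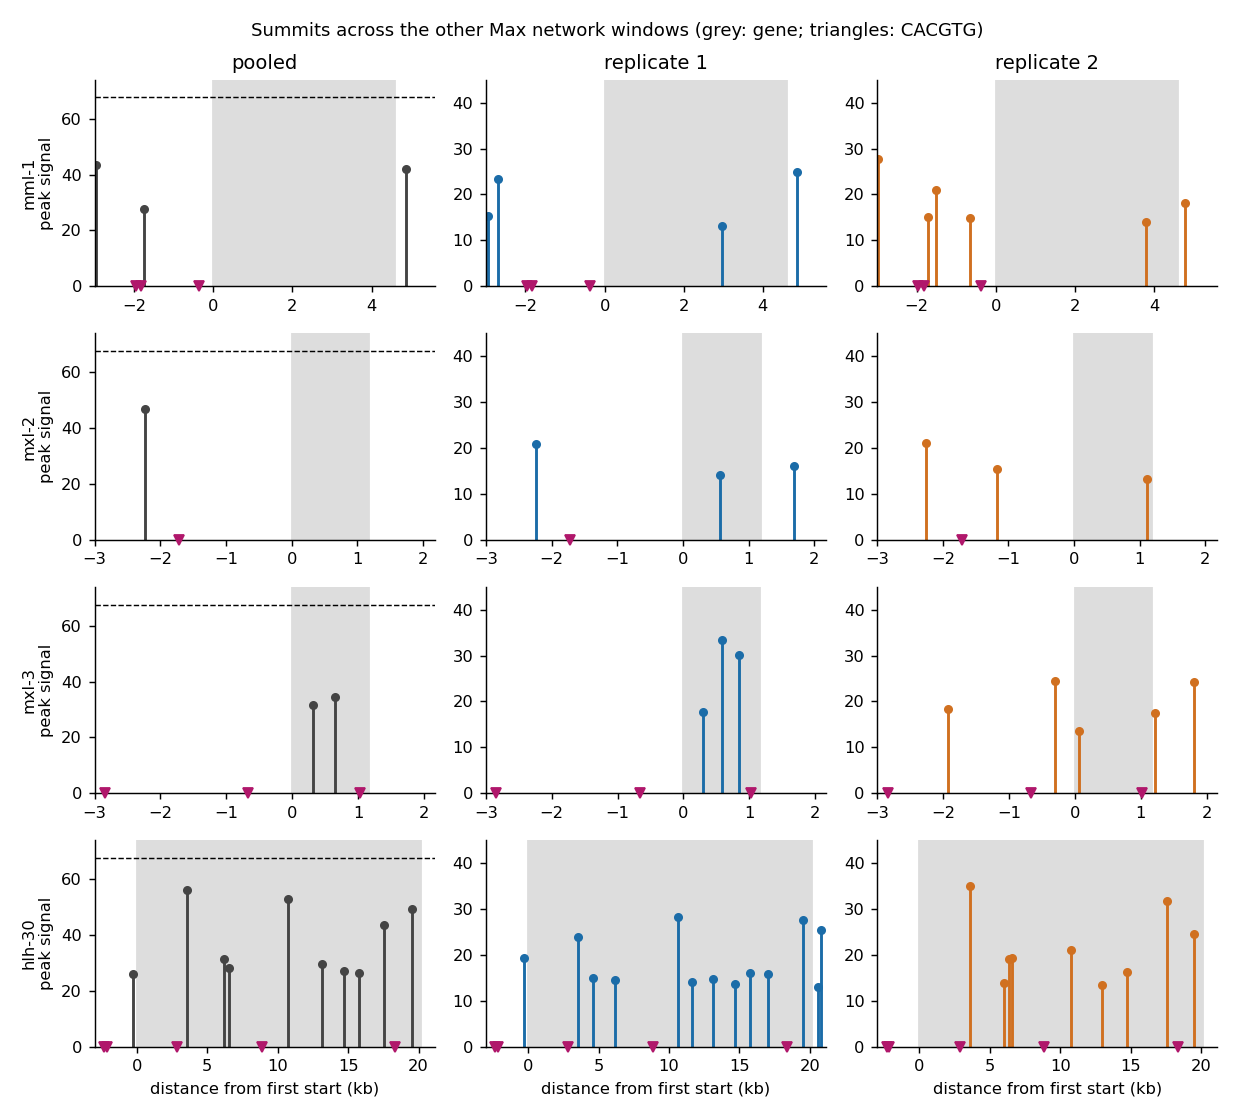
Signal of every summit (vertical axes, the authors' peak signal, scale not stated) against distance from the first transcript start in kb at mml-1, mxl-2, mxl-3 and hlh-30, in the pooled list and both replicates; grey areas are genes, triangles CACGTG sites and dashed lines the lowest thresholded signal. No pooled summit reached 67.7, and the highest was 56.1 in an intron of hlh-30.

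Over the 6 genes, 5 had a pooled summit, against 60.1% of all genes. The same 5 had summits in replicate 1, against 72.2%, and in replicate 2, against 75.5%. Per 10 kb of window the members held 4.09 pooled summits, against 1.63 over all protein-coding windows, with 5.40 against 2.25 in replicate 1 and 5.40 against 2.42 in replicate 2. The members were not alike, and hlh-30 (10) and mdl-1 (6) held most of the pooled summits. Pooled density was 10.8 at mdl-1, 4.14 at hlh-30, 3.87 at mxl-3, 3.49 at mml-1, 1.93 at mxl-2 and 0 at mxl-1. Of the 22 pooled summits, 12 lay inside a member gene, 8 upstream and 2 past the gene end, and 6 lay within 500 bp of a member's start. None was within 250 bp of a tRNA, snoRNA, snRNA or rRNA gene. The shares of all pooled summits in these places were not counted. Whether these counts set the members apart is therefore not known.

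Matching was partial across the network. Summits of both replicates lay within 100 bp at 10 of the 22 pooled summits (45.5%), against 31.0% of all nuclear pooled summits and 93.5% of the thresholded ones. None of the 22 ranked among the 557 strongest in both replicates, whereas 289 of 550 nuclear thresholded summits (52.5%) did. These sets are unlike, because thresholded peaks are the strongest of the pooled list and only 1 of the 22 was thresholded. The share over all pooled summits was not counted, so whether the lack sets these genes apart is not known.

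**Figure D4:**
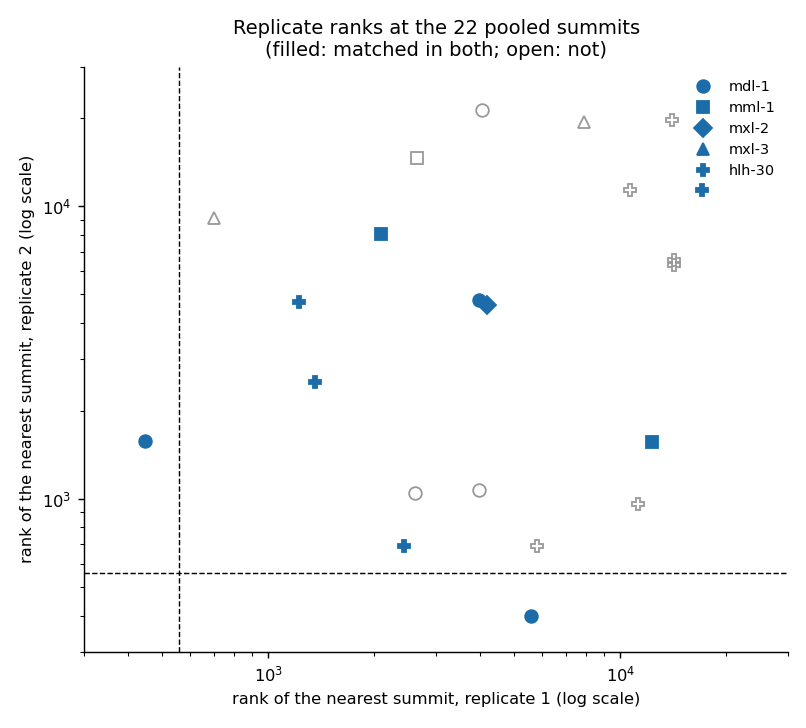
Rank of the nearest replicate 1 summit (horizontal axis, log scale, 1 is strongest) against that of the nearest replicate 2 summit (vertical axis, log scale) for the 22 pooled summits, by gene; filled symbols are matched within 100 bp in both replicates, open ones are not, and dashed lines mark rank 557. The lower left area, strong in both replicates, is empty, and the mdl-1 peaks past each line ranked 445 in replicate 1 and 398 in replicate 2. The share of all pooled summits that would fall in that area was not counted.

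CACGTG was within 100 bp of 4 of the 22 pooled summits (18.2%), 3 at mdl-1 and 1 at mml-1, against 5.04% of nuclear pooled summits. In replicate 1 it was 3 of 29 against 4.59%, all 3 at mdl-1, and in replicate 2 it was 1 of 29 against 4.40%. The higher share thus rested on few summits, mostly of mdl-1, and was not seen in replicate 2. Of the 21 CACGTG sites in the windows, 4 (19.0%) had a pooled summit within 100 bp, against 4.34% of the 17729 nuclear sites. In replicate 1 it was 3 (14.3%) against 5.71%, and in replicate 2 it was 1 (4.76%) against 5.82%. The higher share of sites was thus not seen in replicate 2 either. The windows also held more pooled summits per 10 kb (4.09 against 1.63), which these shares do not allow for. Any E-box of the form CANNTG was near 11 of the 22, against 55.1% of all. The sequence CGCGCA, searched on both strands, was near 2, the mdl-1 summit 373 bp upstream and the hlh-30 summit at 4024244, or 9.09% against 5.14% of pooled and 10.5% of thresholded nuclear summits.

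Related gene lists were read the same way. Over all protein-coding genes, 4.32% had a thresholded summit in the window and 60.1% a pooled one. The lists are short, so shares that rest on 1 or 2 genes do not set a list apart. Of 34 other genes of basic helix-loop-helix factors, 1 (2.94%) had a thresholded summit, hlh-11, a repressor gene, with a signal of 69.6 at 378 bp upstream (41.8 in replicate 1, 22.9 in replicate 2). Pooled summits were found at 18 of the 34 (52.9%). Of 8 lysosomal lipase genes, none had a thresholded summit and 6 (75.0%) had a pooled one. Of 21 autophagy genes, 2 (9.52%) had a thresholded summit, lgg-1 and lgg-2, whose ubiquitin-like proteins mark autophagosomes. The gene lgg-3 of the same list had no thresholded or pooled summit. lgg-2 had a signal of 75.9 at 312 bp upstream (27.9 and 50.2 in the replicates) and lgg-1 one of 72.0 at 165 bp upstream (31.8 and 49.4). All 3 of these summits were matched in both replicates and none had CACGTG within 100 bp. Both are usual, since 93.5% of nuclear thresholded summits were matched and 6.18% had CACGTG. Pooled summits stood at 15 of the 21 (71.4%). In number of thresholded summits 790 genes had 1, mdl-1 included. The genes with most were Y69A2AR.31 and sms-3 with 4, then pxn-1, cat-1 and stg-2 with 3, all with windows longer than that of mdl-1.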

How the data were processed

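Peak lists in narrowPeak format on ce11 were used as deposited: 1 per replicate, 1 from pooled alignments and 1 thresholded by the authors' reproducibility test (irreproducible discovery rate), per the deposited file descriptions. Column 7 is the authors' peak signal, of unstated scale, and column 9 the authors' −log10 q value, converted here to q. All 557 thresholded peaks carried the same −log10 q. No aligner or peak caller is named in the sources used here. Lists on ce10 and the possible control were not used. Read totals were not used, so depth is unknown.

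Annotation was Ensembl release 115 and the genome that of RefSeq, each for WBcel235. Positions are 1-based. A summit was matched within 100 bp, CACGTG was sought within 100 bp, small RNA genes within 250 bp. The list of autophagy genes had 1 name with no match in the annotation.

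The genes and lists were chosen with earlier results of these data known, so shares are descriptions with no test. Named genes were all members, up to 4 listed genes with a thresholded summit, and up to 5 genes with as many thresholded summits as mdl-1 or more. Exceptions, chosen after their values were seen, are the summits outside the windows and the neighbours of member summits.

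Windows, matching distances, sequence windows, the strongest part of each list and single replicates were tried as alternatives. Calculations used Python 3.11.15, numpy 2.4.6, pandas 2.3.3 and matplotlib 3.10.9.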

Additional observations from a re-analysis of the deposited data

How the results depend on the processing

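The 6 windows held 2 thresholded summits with a limit of 5000 bp upstream, the second being the peak 4574 bp upstream of mdl-1, and 0 among the 278 strongest peaks, where 0 members had one. The share of all genes with a thresholded summit was 2.06% with 1000 bp upstream to the gene end, 5.31% with 5000 bp and 2.05% among the 278 strongest. The 557 strongest peaks of a single replicate gave 4.4 to 4.46%, and again 1 summit in the windows, which lay past the mdl-1 gene end in replicate 1 and inside the gene in replicate 2. Thresholded summits at mdl-1 came to 3.92 per 10 kb in the shorter window. Pooled summits numbered 14 among the stronger 50% of that list. Those matched in both replicates numbered 6 within 50 bp and 0 among the 557 strongest peaks of each replicate, where the thresholded summit of mdl-1 was also lost (0). In a single replicate, summits with CACGTG numbered 1 to 3. The other 22 of 36 alternatives gave counts within 1.5 times those reported, or the same density at mdl-1. Shares of genes and the density were judged by a narrower rule, the standard deviation of the 2 single-replicate values. By that rule 4.4 to 4.46% was listed as changed, though close to the 4.32% reported. For the single-replicate values the cause of the change was not tested. Alternatives for pooled matching, pooled CACGTG and pooled counts by replicate were chosen after seeing the data. No paired analysis was possible because there was 1 group. Read depth was not used here, so the counting error behind each signal is unknown.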
